A study of Mus musculus with 6 samples.

Results

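Reactive astrocyte genes are genes whose messenger RNA is raised when astrocytes respond to injury, inflammation or degeneration. A set of 10 such genes was described here in the cerebellum of SCA7 knock-in mice: Gfap, Vim, Serpina3n, Lcn2, Cd44, Osmr, Steap4, Cp, S1pr3 and Aspg. They were chosen by symbol in GENCODE M21, on mm10, from a table of 48709 Ensembl genes, and all 10 passed the filter on low counts, among 16699 genes that did. The tested samples were 3 cerebella of heterozygous SCA7 knock-in mice (KI), labelled 140Q/5Q, and they were set against 3 wild-type cerebella (WT). All mice were C57BL/6J at 40 weeks of age. An overlong glutamine stretch in ataxin-7 causes SCA7, a spinocerebellar ataxia. In a knock-in the expanded repeat sits in the mouse's own Atxn7 gene, so no transgene promoter restricts it to one cell type. RNA was taken from bulk tissue, which mixes all cerebellar cells, and the labels do not say whether each sample is a single animal.

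Astrocytes of the cerebellum include Bergmann glia, whose fibres run beside the dendrites of Purkinje cells, and the astrocytes of the granular layer and white matter. When they become reactive they enlarge their intermediate filaments, secrete protease inhibitors and iron-binding proteins, and display receptors for cytokines and matrix. Much of this response is known to run through receptors that share the gp130 subunit and through the transcription factor STAT3. The comparison asks whether the 10 genes differed in level between KI and WT cerebella.

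The libraries held between 34630391 and 39826478 counts in KI and between 39528292 and 49127673 counts in WT. Values are CPM, counts scaled to library size with TMM factors, and calls required an adjusted p of no more than 0.05 in edgeR's quasi-likelihood test over all genes. Of the genes tested 1.9% were called, 0.629% higher and 1.28% lower in KI. The split was 105 higher and 213 lower, and with scaling by library size alone it was 323 higher and 190 lower. An unadjusted edgeR p under 0.05 was held by 18.1% of all genes tested, the background for such counts in the lists below. The identity of the tissue was checked by Purkinje cell markers: Rgs8, a regulator of G protein signalling, had 1113 ± 136 CPM in KI and 2239.9 ± 199 CPM in WT (SD, n = 3 each). Rgs8 was itself called lower in KI (edgeR adjusted p = 0.00175). Its presence marks cerebellar tissue and does not show that the dissections were alike. Atxn7 had 22.1 to 24.0 CPM in KI and 22.6 to 26.2 CPM in WT, and counts per gene do not separate its 2 alleles. Markers of brainstem neurons stood high in KI replicates 1 and 3, and choroid plexus markers were lowest in KI replicate 2 and highest in WT replicate 3.

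Of the 10 reactive astrocyte genes, Serpina3n rose in KI and none was called lower. Gfap and Vim, the filament genes most used to recognise reactive astrocytes, had means that were lower in KI by less than the spread between samples. Fitted log2 fold changes were negative for 8 of the 10 and positive for Serpina3n and Cp, with a median of -0.23. Over all 16699 genes tested the median was 0.01, with 8127 negative. At an unadjusted edgeR p under 0.05 the set had 1 higher gene and 2 lower, Lcn2 and Cd44, against 9.81% and 8.26% of all genes. DESeq2, which called 5.94% of genes, called Serpina3n higher and Lcn2 lower. By limma-voom, which called 1.66% of genes, none of the 10 was called.

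**Figure D1:**
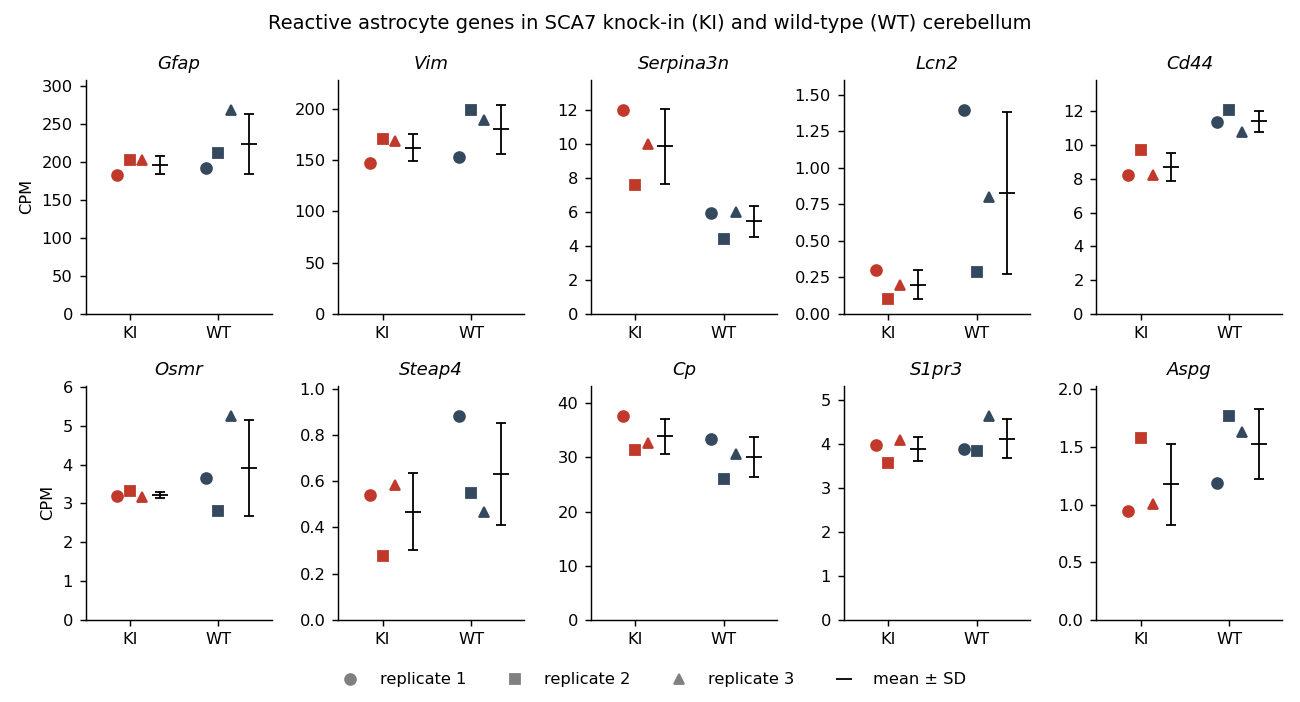
CPM of each of the 10 genes (vertical axes, starting at 0) in the 3 KI and the 3 WT libraries, with replicate numbers as symbols and the mean ± SD beside the points. Serpina3n lies between 7.58 and 12.0 CPM in KI, above every WT library, Cd44 lies below every WT library in KI, and the other 8 genes overlap. Of all genes tested, 23.8% did not overlap, in either direction.

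Gfap (ENSMUSG00000020932, chromosome 11, 102887336 to 102900912, minus strand) encodes glial fibrillary acidic protein, the main intermediate filament of astrocytes. It had 183, 203 and 202 CPM in KI replicates 1 to 3, against 192, 212 and 268 CPM in WT replicates 1 to 3. The groups overlapped, and WT replicate 3 stood above the other 5 libraries. KI over WT gave a log2 fold change of -0.19 ± 0.12 (SE; n = 3 in each group) and a 95% interval of -0.45 to 0.07, at an edgeR adjusted p of 0.417. Without WT replicate 3 the log2 fold change was -0.06. Gm26668, which overlaps Gfap on the other strand, held at most 6 counts in any library.

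Vim (ENSMUSG00000026728, chromosome 2, 13573927 to 13582826, plus strand) encodes vimentin, a filament protein of Bergmann glia, reactive astrocytes and also of endothelial and ependymal cells. It had 148, 171 and 169 CPM in KI, against 153, 199 and 189 CPM in WT. The lowest library of each group was replicate 1, and the groups overlapped. For Vim the log2 fold change was -0.15 ± 0.11, with a 95% interval of -0.39 to 0.09 and an edgeR adjusted p of 0.497. Per kilobase of exon, Gfap and Vim were the most abundant of the 10 genes. Gfap had 46.5 CPM per kilobase in KI and 53.1 in WT, and Vim had 34.3 in KI and 38 in WT. Serpina3n had 4.77 CPM per kilobase in KI and 2.63 in WT, and Cp had 3.54 in KI and 3.14 in WT, so their order differed between the groups.

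None of 8 other intermediate filament genes of the nervous system was called by edgeR. At an unadjusted p under 0.05 there was 1, which DESeq2 called, and limma-voom called 0. This was Prph, the peripherin of peripheral and brainstem neurons, with 5.14, 0.577 and 1.78 CPM in KI, against 0.369, 0.453 and 0.284 CPM in WT and an edgeR adjusted p of 0.0721. Its KI libraries stood in the same order as for the brainstem markers described with Serpina3n. Nestin (Nes) and synemin (Synm), which astrocytes assemble together with Gfap and vimentin, had log2 fold changes of -0.32 ± 0.16 and -0.12 ± 0.09. The neurofilament gene Nefl, the most abundant of the list, had 353 ± 48.6 CPM in KI and 318 ± 38.2 CPM in WT.

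Serpina3n (ENSMUSG00000021091, chromosome 12, 104406729 to 104414329, plus strand) encodes a secreted serine protease inhibitor that inflamed astrocytes release. It had 12.0, 7.58 and 9.97 CPM in KI, from 442, 302 and 358 counts, against 5.92, 4.37 and 5.99 CPM in WT, from 289, 183 and 232 counts. Every KI library lay above every WT library, as for 12.3% of all genes tested. Serpina3n rose 1.81-fold, a log2 fold change of 0.86 ± 0.19 with a 95% interval of 0.44 to 1.27. The edgeR adjusted p of 0.0497 was just inside the threshold, with an unadjusted p of 0.000939. The call was lost when KI replicate 1 or 3 or WT replicate 1, 2 or 3 was left out, at adjusted p of 0.163, 0.147, 0.133, 0.129 and 0.105. Without KI replicate 2 the log2 fold change was 1.01 with an adjusted p of 0.00909.

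The 250 bases before the RefSeq start of Serpina3n are shown because it was the called member. They lie at chr12:104406458-104406707, plus strand, in GRCm38.p6, which has the coordinates of mm10.
Serpina3n: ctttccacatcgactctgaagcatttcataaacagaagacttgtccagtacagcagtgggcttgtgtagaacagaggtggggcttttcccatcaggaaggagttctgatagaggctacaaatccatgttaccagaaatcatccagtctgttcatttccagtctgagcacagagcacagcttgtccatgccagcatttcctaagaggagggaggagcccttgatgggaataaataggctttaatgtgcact
A search on both strands for TTCNNNGAA, the usual STAT motif, and for TTGCNNAA, a C/EBP motif, found no match in this window. Of 32851 mouse promoter windows of this length, 7.02% hold the STAT motif and 9.56% the C/EBP motif.

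Serpina3n belongs to a cluster of related genes, and reads from the sequence they share could be left uncounted or be counted for another member. Of the 50-base stretches of its annotated transcripts, 6.9% occur in another gene, all of them members of the cluster. Of 10 other Serpina3 genes looked at, Serpina3g passed the filter, with 0.739 ± 0.319 CPM in KI and 0.761 ± 0.249 CPM in WT and an edgeR adjusted p of 0.97. The other 9 held at most 9 counts in any library, so the reads given to Serpina3n exceeded those given to its paralogues in each of the 6 libraries.

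Lcn2 (ENSMUSG00000026822, chromosome 2, 32384633 to 32388252, minus strand) encodes lipocalin-2, a secreted protein that binds iron-carrying siderophores and is also stored in neutrophil granules. It had 11, 4 and 7 counts in KI, which are 0.298, 0.1 and 0.195 CPM, against 68, 12 and 31 counts in WT, which are 1.39, 0.286 and 0.801 CPM. WT replicate 1 was the highest library, and WT replicate 2 lay just under KI replicate 1. For Lcn2 the log2 fold change was -2.08 ± 0.59, with a 95% interval of -3.38 to -0.77 and an edgeR adjusted p of 0.108. DESeq2 gave an adjusted p of 0.0334.

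The neutrophil genes S100a8 and S100a9, chosen here beside Lcn2 after their values were seen, ran at 0.23 ± 0.0597 and 0.392 ± 0.223 CPM in KI, against 0.546 ± 0.258 and 1.02 ± 0.416 CPM in WT. Their log2 fold changes were -1.25 ± 0.43 and -1.38 ± 0.44, with edgeR adjusted p of 0.173 and 0.147. WT replicate 1 was the highest library for S100a8, as for Lcn2, and WT replicate 3 for S100a9. None of the 7 blood cell markers was called, with 3 at an unadjusted p under 0.05, and none by DESeq2, which gave S100a8 no adjusted p, or limma-voom. Their summed level was 85.2 to 105 CPM in KI and 104 to 112 CPM in WT, and Hbb-bs, a beta globin, had 65.7 ± 5.85 CPM in KI and 67.7 ± 4.49 CPM in WT. The part of blood cells in the Lcn2 values was not tested.

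Cp (ENSMUSG00000003617, chromosome 3, 19957054 to 20009145, plus strand) encodes ceruloplasmin, a copper-carrying ferroxidase that astrocytes hold on their surface and that lets iron leave the cell. It had 37.6, 31.4 and 32.6 CPM in KI, against 33.4, 26.0 and 30.7 CPM in WT. Replicate 1 was the highest and replicate 2 the lowest library of both groups, and the groups overlapped. The log2 fold change was 0.17 ± 0.11, with a 95% interval of -0.07 to 0.42 and an edgeR adjusted p of 0.448. Cp overlaps Hps3 on the other strand, a gene with 734 to 804 counts in KI and 838 to 1221 counts in WT, and 0.618% of its 50-base stretches lie in Hps3 transcripts. The strand setting of the counting is not given in the sources used here.

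Among 11 tested partners of ceruloplasmin, lipocalin-2 and STEAP4 in iron handling, 1 was called, and it was lower. Steap2, another metalloreductase of the STEAP family, fell to 139 ± 7.9 CPM in KI, against 181 ± 10 CPM in WT, a log2 fold change of -0.37 ± 0.08 (edgeR adjusted p = 0.0445). The median log2 fold change of these partners was -0.20. At an unadjusted edgeR p under 0.05 the list had 2 higher and 5 lower, against 9.81% and 8.26% of all genes. DESeq2 called 4 of its genes and limma-voom 1. Slc40a1, the iron exporter ferroportin, had 10.1 ± 0.421 CPM in KI and 14.2 ± 1.66 CPM in WT with an edgeR adjusted p of 0.0647. Slc22a17, a receptor of lipocalin-2, had 372 ± 23.8 CPM in KI and 270.4 ± 49.4 CPM in WT with an edgeR adjusted p of 0.0955. With scaling by library size alone the single call of the list was a higher gene instead. Without each of KI replicates 1 and 3 and WT replicates 1, 2 and 3 no partner was called.

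Cd44 (ENSMUSG00000005087, chromosome 2, 102811141 to 102901665, minus strand) encodes the surface receptor for hyaluronan, the main glycan of brain matrix. It had 8.20, 9.69 and 8.24 CPM in KI, against 11.4, 12.1 and 10.8 CPM in WT. All 3 KI libraries lay below all 3 WT libraries, as for 11.5% of the genes tested. Cd44 had a log2 fold change of -0.39 ± 0.12, with a 95% interval of -0.65 to -0.13, and the edgeR adjusted p of 0.125 missed the threshold. Of 9 tested genes of hyaluronan metabolism and CD44 binding none was called, 1 had an unadjusted p under 0.05 and neither DESeq2 nor limma-voom called any. Rdx, the cytoskeletal linker radixin and the most abundant of them, had 119 ± 9.29 CPM in KI and 115 ± 0.912 CPM in WT.

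Osmr (ENSMUSG00000022146, chromosome 15, 6813577 to 6874969, minus strand) encodes the receptor subunit that pairs with gp130 to bind oncostatin M. It had 3.19, 3.31 and 3.17 CPM in KI, against 3.67, 2.82 and 5.24 CPM in WT. The KI libraries sat within the WT range and varied little, with a coefficient of variation of 2.33% in KI and 31.5% in WT. The log2 fold change was -0.27 ± 0.22, with a 95% interval of -0.76 to 0.21 and an edgeR adjusted p of 0.549.

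The gp130 and STAT3 list, fixed as the pathway around Osmr, had 1 of 14 tested members called higher and none called lower. Its median log2 fold change was 0.06. Cebpd, a transcription factor that STAT3 induces in astrocytes, rose to 1.72 ± 0.197 CPM in KI, against 0.709 ± 0.189 CPM in WT. It had 66, 75 and 54 counts in KI and 24, 35 and 31 counts in WT. Every KI library lay above every WT library, as for 12.3% of all genes tested. Its log2 fold change was 1.29 ± 0.26 at an edgeR adjusted p of 0.0398, and with single libraries left out the adjusted p was 0.0386 to 0.136. The call was kept without KI replicate 2 and lost without each of the other 5 libraries. Stat3 itself had 61.4 ± 4.92 CPM in KI and 56.9 ± 4.04 CPM in WT, and Il6st, which encodes gp130, had a log2 fold change of -0.26 ± 0.09. The edgeR adjusted p was 0.562 for Stat3 and 0.18 for Il6st. At an unadjusted edgeR p under 0.05 the list had 2 higher, Cebpd and Tyk2, and 2 lower, Il6st and Jak1. The shares over all genes were 9.81% and 8.26%. The cytokine genes Osm, Lif, Il6 and Cntf did not pass the filter on low counts, with at most 7 counts in a KI library and 14 in a WT library.

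S1pr3 (ENSMUSG00000067586, chromosome 13, 51408639 to 51422797, plus strand) encodes a receptor for the lipid sphingosine-1-phosphate. It had 3.98, 3.56 and 4.09 CPM in KI, against 3.87, 3.84 and 4.62 CPM in WT. The groups overlapped, and the log2 fold change was -0.08 ± 0.15, with a 95% interval of -0.42 to 0.26 and an edgeR adjusted p of 0.817. Of 9 genes of the same lipid pathway 1 was called lower and none higher, with a median log2 fold change of -0.07. This was S1pr1, another receptor of the lipid, which fell to 197 ± 13.9 CPM in KI, against 256 ± 8.6 CPM in WT, a log2 fold change of -0.38 ± 0.08 (edgeR adjusted p = 0.0417). Its call was kept without KI replicate 2 and lost without each of the other 5 libraries, at adjusted p up to 0.19. Whether S1pr3 and S1pr1 differ in their response was not tested.

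Steap4 (ENSMUSG00000012428, chromosome 5, 7960457 to 7982213, plus strand) encodes a membrane metalloreductase that reduces iron and copper. It had 20, 11 and 21 counts in KI, which are 0.541, 0.276 and 0.585 CPM, against 43, 23 and 18 counts in WT, which are 0.881, 0.549 and 0.465 CPM. The groups overlapped, with WT replicate 1 highest and KI replicate 2 lowest. The log2 fold change was -0.46 ± 0.38, with a 95% interval of -1.29 to 0.38 and an edgeR adjusted p of 0.565.

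Steap4 was the only member whose window of 250 bases before the RefSeq start held the STAT motif, and it is shown for that reason. The window lies at chr5:7960222-7960471, plus strand, in GRCm38.p6, and capitals mark the matches.
Steap4: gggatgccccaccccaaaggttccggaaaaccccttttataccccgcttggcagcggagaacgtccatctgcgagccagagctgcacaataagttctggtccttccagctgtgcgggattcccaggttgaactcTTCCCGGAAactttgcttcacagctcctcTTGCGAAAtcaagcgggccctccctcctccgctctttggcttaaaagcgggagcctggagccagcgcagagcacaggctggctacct
The first run in capitals matches TTCNNNGAA and begins 116 bases before the start, and the second matches TTGCNNAA and begins 87 bases before it. The 10 genes have 11 RefSeq windows, 1 with the STAT motif and 3 with the C/EBP motif (Lcn2, Steap4 and the second of 2 windows of Cp). The Lcn2 window lies inside the GENCODE gene, and the second Cp window and the end of the Steap4 window reach into theirs. A match is a run of letters and not a measured binding site.

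Aspg (ENSMUSG00000037686, chromosome 12, 112106679 to 112127559, plus strand) encodes an asparaginase. It had 35, 63 and 36 counts in KI, which are 0.947, 1.58 and 1.0 CPM, against 58, 74 and 63 counts in WT, which are 1.19, 1.77 and 1.63 CPM. Replicate 2 was the highest library of both groups, and the groups overlapped. The log2 fold change was -0.37 ± 0.27, with a 95% interval of -0.97 to 0.24 and an edgeR adjusted p of 0.516. Of 3 genes of asparagine metabolism none was called by edgeR or limma-voom, 2 had an unadjusted p under 0.05 and DESeq2 called 1. Asrgl1, an asparaginase-like enzyme and the most abundant of the 3, had 299 ± 13.4 CPM in KI and 359 ± 9.77 CPM in WT with an edgeR adjusted p of 0.0962.

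**Figure D2:**
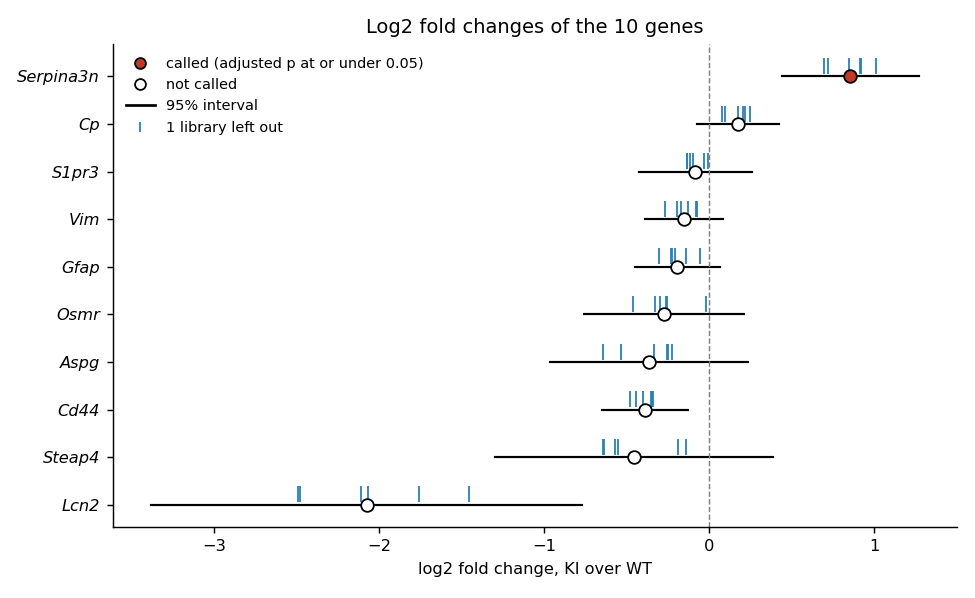
Log2 fold change of KI over WT for each of the 10 genes (points) with its 95% interval (black lines) and the values with 1 library left out (blue ticks). The interval of Serpina3n lies above 0 and those of Cd44 and Lcn2 below it, and only Serpina3n passed the adjusted threshold.

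Other genes of astrocyte reactivity gave no call in edgeR. The 3 further genes usually counted as raised in all reactive astrocytes, Timp1, Hspb1 and Cxcl10, had a median log2 fold change of 0.36, with 2 at an unadjusted p under 0.05 and none called by edgeR, DESeq2 or limma-voom. Hspb1, a small heat shock protein, had 6.58, 6.75 and 6.52 CPM in KI, against 4.88, 5.46 and 5.66 CPM in WT, with an edgeR adjusted p of 0.235. Cxcl10, a chemokine induced by interferon, had 4.11, 0.753 and 1.23 CPM in KI, against 0.635, 0.931 and 0.827 CPM in WT. Its mean in KI rested on replicate 1, and the edgeR adjusted p was 0.223.

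Astrocytes after endotoxin and after ischemia are known to raise different genes. Of 12 tested endotoxin-type genes none was called by edgeR, DESeq2 called 2 and limma-voom 0. The 2 were Serping1 and Srgn, with edgeR log2 fold changes of 0.33 ± 0.09 and 0.44 ± 0.12. At an unadjusted edgeR p under 0.05 there were 5, all higher, against 9.81% higher among all genes. The median log2 fold change was 0.20, with 7 positive and 5 negative. H2-D1, a class I histocompatibility gene and the most abundant of them, had 204 ± 8.6 CPM in KI and 177 ± 14.3 CPM in WT with an edgeR adjusted p of 0.23. Complement C3, which is often used as the marker of this state and is named here outside the rule for named genes, had 1.05 ± 0.162 CPM in KI and 1.48 ± 0.589 CPM in WT with an edgeR adjusted p of 0.439. Several of these genes, such as Psmb8 and H2-D1, are also induced by interferon in other cells. Of 10 tested ischemia-type genes none was called, 1 had an unadjusted p under 0.05 and neither DESeq2 nor limma-voom called any, with a median of 0.06. B3gnt5, a glycolipid enzyme and the most abundant of these, had 33.6 ± 2.02 CPM in KI and 41.4 ± 4.42 CPM in WT with an edgeR adjusted p of 0.151.

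The cytokines known to drive astrocytes into reactivity, with their receptors, had no call among 16 tested genes, 4 higher and 1 lower at an unadjusted p under 0.05, 1 call by DESeq2 and 0 by limma-voom. The lower gene was Il1r1, a receptor for interleukin-1, at 6.89 ± 0.24 CPM in KI and 9.34 ± 1.22 CPM in WT with an edgeR adjusted p of 0.123. Among the higher, the complement genes C1qa and C1qc, which microglia make, had log2 fold changes of 0.31 ± 0.10 and 0.38 ± 0.11 with edgeR adjusted p of 0.144 and 0.116. Ifngr2, a receptor subunit for interferon gamma and the most abundant of the list over all 6 libraries, had 49.9 ± 3.16 CPM in KI and 51 ± 2.2 CPM in WT. Tnf and Il1b did not pass the filter, with at most 4 counts in a KI library and 11 in a WT library. Among 12 microglia markers none was called by edgeR or limma-voom, 3 had an unadjusted p under 0.05 and DESeq2 called 2.

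Of 15 markers of astrocyte identity 5 were called lower in KI and none higher, with a median log2 fold change of -0.30. Fewer astrocytes, less RNA per astrocyte and a different mix of dissected tissue cannot be told apart in bulk tissue. Aldoc, the glycolytic enzyme aldolase C, which Purkinje cells also make, fell to 1798 ± 123 CPM in KI, against 2776 ± 147 CPM in WT, with an edgeR adjusted p of 0.00392. The gap junction gene Gja1 fell to 216 ± 6.82 CPM in KI, against 303 ± 5.92 CPM in WT, and the water channel gene Aqp4 fell to 369 ± 29.8 CPM in KI, against 535 ± 28.3 CPM in WT. Of 9 Bergmann glia markers 1 was called lower, A2m, a protease inhibitor, at 85.9 ± 9.76 CPM in KI and 126 ± 9.34 CPM in WT. The median of this list was -0.34, and all 9 log2 fold changes were negative. At an unadjusted edgeR p under 0.05, 9 astrocyte and 7 Bergmann glia markers were lower and 0 higher, against 8.26% lower among all genes. DESeq2 called 9 astrocyte and 6 Bergmann glia markers, and limma-voom called 5 and 1. The number of astrocyte markers called lower by edgeR was 1, 9 and 1 without KI replicates 1, 2 and 3. It was 2, 2 and 1 without WT replicates 1, 2 and 3. The call of A2m was lost without each library other than KI replicate 2. With the level of the brainstem markers added to the model, 0 astrocyte and 0 Bergmann glia markers were called, among 3 calls over all genes.

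The level of each of the 10 genes was also set against the mean log2 CPM of the 15 astrocyte markers in the same library. For Gfap this difference averaged -0.73 in KI and -0.85 in WT. KI minus WT was 0.12 for Gfap and 0.15 for Vim, with two-sided exact permutation p of 0.5 and 0.3. For Serpina3n the relative level was -4.69, -5.54 and -4.97 in KI, against -6.02, -6.54 and -6.06 in WT. The Serpina3n means were -5.07 in KI and -6.21 in WT, KI minus WT was 0.48 for Cp, and for both genes all 3 KI values lay above all 3 WT values. On this scale 48.4% of all genes tested did so and 1.38% lay wholly lower, and the median gene read 0.30 higher in KI, since the markers' mean log2 CPM was 8.35 in KI and 8.64 in WT. Gfap and Vim lay below that median, and Serpina3n and Cp above it. Serpina3n and Cp had an exact permutation p of 0.1, the smallest that 3 against 3 samples can give, which is 0.4 after Benjamini-Hochberg adjustment over the 10 genes. For Cd44, whose groups had not overlapped in CPM, KI minus WT was -0.09 on this scale with an exact permutation p of 0.2.

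**Figure D3:**
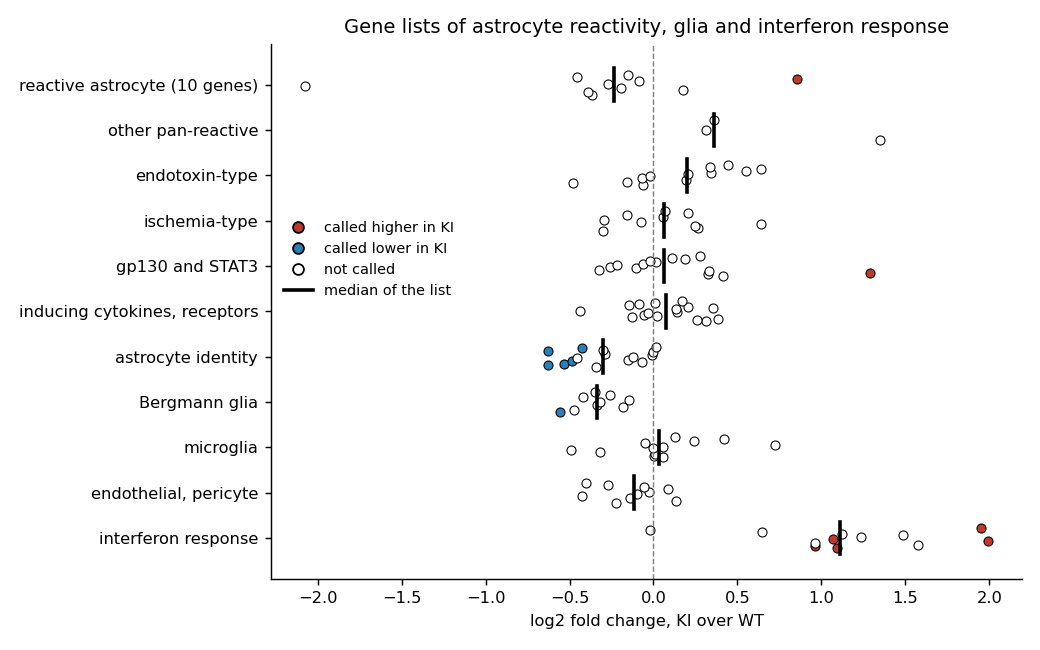
Log2 fold change of KI over WT for every tested gene of 11 lists, with the median of each list as a bar. The 10 reactive astrocyte genes have a median of -0.23, astrocyte identity and Bergmann glia markers lie mostly below 0, and interferon response genes lie mostly above 0.

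Levels of other cell types moved with Serpina3n in part. The brainstem list had 7 of 14 markers tested and 1 called higher, Slc18a2, the vesicular monoamine transporter, with a median log2 fold change of 3.27. The markers called numbered 9 of 11 tested without KI replicate 2, 2 of 10 without WT replicate 2, and 0 without KI replicate 1 or 3 or WT replicate 1 or 3. Slc18a2 had an adjusted p of 0.176 with limma-voom and 0.211 with robust estimation in edgeR, and 4 markers were called with library size alone. The summed CPM of the tested markers was 71.2, 9.04 and 37.6 in KI, against 3.09, 7.87 and 2.48 in WT. Markers at 0 in some library were Slc6a4, Dbh and Hoxb3 among the tested, and Chat, Phox2a, Hoxa3, Hoxa5 and Hoxb5 among those under the filter. The order of the KI libraries was the same for Serpina3n and for the brainstem list, with replicate 1 highest and replicate 2 lowest. KI replicate 2 had a brainstem level of -0.44 as a mean log2 CPM, within the WT range of -2.13 to -0.39. Its summed brainstem CPM of 9.04 lay above every WT library. The same library had 7.58 CPM of Serpina3n, against 4.37 to 5.99 CPM in WT. Genotype and the brainstem level are partly confounded. With the mean log2 CPM of the brainstem list added to the model, the log2 fold change of Serpina3n was 0.58 ± 0.31. The edgeR adjusted p was 0.976, and 3 genes were called in all.

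Of 12 interferon response genes 5 were called higher in KI and none lower, against 0.629% and 1.28% of all genes. The median log2 fold change was 1.11. At an unadjusted edgeR p under 0.05, 11 were higher, against 9.81% of all genes, and DESeq2 called 9 and limma-voom 4. Like the other lists, this one was chosen with earlier results of these data known. Irf7, the factor that amplifies the type I interferon response, had 28.6, 20.7 and 17.5 CPM in KI, against 5.67, 6.94 and 4.11 CPM in WT. Ifi27 and Bst2, interferon-induced membrane proteins, had log2 fold changes of 0.96 ± 0.12 and 1.09 ± 0.17. As mean log2 CPM the interferon genes stood at 4.81, 4.18 and 3.84 in KI, against 3.37, 3.26 and 2.80 in WT. KI replicate 1 was the highest library for this list as for Serpina3n, whereas replicates 2 and 3 stood in the opposite order. The number of called interferon genes was 2, 8 and 7 without KI replicates 1, 2 and 3 and 2, 3 and 2 without WT replicates 1, 2 and 3. The part of the interferon response in the Serpina3n values was not tested.

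**Figure D4:**
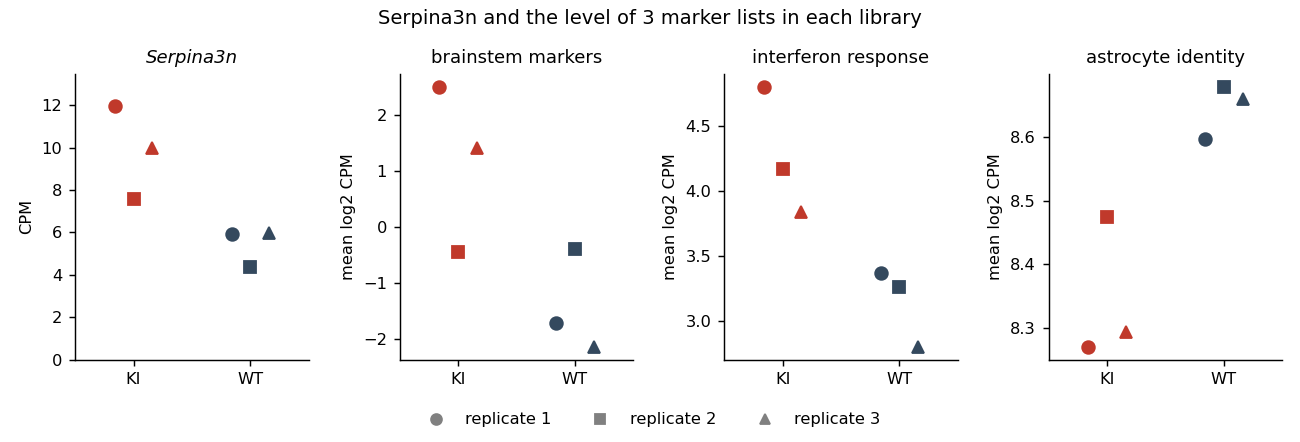
CPM of Serpina3n and the mean log2 CPM of the brainstem, interferon response and astrocyte identity lists in the 3 KI and 3 WT libraries, with replicate numbers as symbols. On these scales KI replicate 2 lies within the WT range for the brainstem list but above every WT library for Serpina3n and for the interferon list. As summed CPM its brainstem level, 9.04, lies above the WT range of 2.48 to 7.87.

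The endothelial, meningeal, ependymal and choroid plexus lists, of cells that also make Vim, Cd44, Cp or Lcn2, had no marker called by edgeR. Of 10 endothelial and pericyte markers 3 had an unadjusted p under 0.05, all lower in KI, and DESeq2 called 1. Rgs5 had 115 ± 9.13 CPM in KI and 139 ± 21.6 CPM in WT. The 8 meningeal markers had 2 at an unadjusted p under 0.05 and none called by DESeq2, with Ptgds, a prostaglandin synthase, at 589 ± 115 CPM in KI and 747 ± 86.2 CPM in WT. The 6 ependymal markers had 0 at an unadjusted p under 0.05 and none called by DESeq2, with Foxj1 at 11.3 ± 3.36 CPM in KI and 9.32 ± 1.19 CPM in WT. The 12 choroid plexus markers had 4 at an unadjusted p under 0.05, all lower in KI, and 2 called by DESeq2. All 12 had negative log2 fold changes, with a median of -1.10. By limma-voom none was called in any of these lists. Ttr, the transthyretin of the choroid plexus, had 239, 2.59 and 1244 CPM in KI, against 468, 453 and 1778 CPM in WT. The members whose lowest library was KI replicate 2, the library with the least choroid plexus RNA, were Lcn2, Steap4 and S1pr3. The part of choroid plexus in their values was not tested. Of 8 Purkinje cell markers 5 were lower and none higher, and the number lower was 1, 5 and 2 without KI replicates 1, 2 and 3 and 1, 3 and 3 without WT replicates 1, 2 and 3.

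The genes whose log2 CPM followed a member most closely over the 6 libraries were looked up among 11278 named genes, pseudogenes left out, with a mean of at least 5 CPM. For Gfap they were Pdlim2, Cd2bp2 and Wdr70, with Pearson's r of 0.991, 0.990 and 0.980 and Spearman's rho of 0.943, 1 and 0.886. For Serpina3n they were Emcn, Zfp945 and Fcho2, with r of 0.996, 0.994 and 0.993 and rho of 0.943, 0.943 and 1. Each is the highest of 11278 values over 6 libraries, so they are a description with no test. Emcn, an endothelial sialomucin, had 13.2, 11.3 and 12.3 CPM in KI, against 10.2, 9.14 and 9.97 CPM in WT, with an edgeR adjusted p of 0.167.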

How the data were processed

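The deposited table holds raw counts of reads per Ensembl gene. The authors made them with HTSeq 0.6.1 from reads aligned with TopHat2 2.0.14 and Bowtie2 2.1.0 to mm10, per the submitters' processing notes, and the libraries were made with a stranded mRNA kit (TruSeq) per the labels' protocols. The annotation release is not given in the sources used here, nor is the strand setting. GENCODE M21 gave symbols for 48349 of 48709 identifiers, and the rest held 0.0503% of counts. The counts were tested in R 4.3.3 with edgeR 4.0.16: filterByExpr (minimum count 10, minimum total 15), TMM, a quasi-likelihood F test on genotype alone and Benjamini-Hochberg adjustment over all genes tested. The SE is the absolute log2 fold change divided by the root of F, and intervals use its t distribution. Mean log2 CPM uses a prior count of 2. Alternatives included DESeq2 1.42.0 and limma-voom (limma 3.58.1). The test was run on simulated counts with known changes first.

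The 10 genes and the other lists were chosen with earlier results of these data known. The rule for named genes took all 10 genes, the detected Serpina3 paralogues, up to 3 called genes per list by adjusted p, or a list's most abundant gene where none was called, and the 3 genes most like Gfap and Serpina3n. Some genes that the rule takes are not reported here. Other genes named were chosen after their values were seen. Replicates within a group differed by more than sampling noise (chi-square per degree of freedom 13.06 to 28.14). Separate animals are not stated for the samples, so each p-value reflects only how far these libraries spread, possibly for technical reasons.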

Additional observations from a re-analysis of the deposited data

How the results depend on the processing

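The log2 fold changes of the 10 genes kept their direction under every alternative run for each, except that of Osmr, which was 0.12 with the brainstem level as a covariate. Serpina3n was called under 9 of 18 alternatives, with log2 fold changes of 0.58 to 1.01 and adjusted p of 0.000179 to 0.976. It was not called with DESeq2 size factors in edgeR (0.0544), with at least 1 CPM in 3 samples (0.0523) or with limma-voom (0.0622). The number of called members, 1 in the reported fit, was 0 under these 3 settings and with the brainstem covariate, 2 without a filter and with DESeq2, 3 with the replicate block and 4 with GC and length offsets with the replicate block. It was 0 to 1 with single libraries left out. Lcn2 was called lower under 4 of 17 alternatives: without a filter, with DESeq2 and under both block settings. Cd44 was called lower with the replicate block without offsets. Gfap at -0.27 and Cp at 0.27 were called with GC and length offsets with the replicate block. The number of all genes called, 318, was 513 with library size alone, 1303 without a filter, 934 with DESeq2, 727 with GC and length offsets, 2034 with the replicate block, 1496 with both and 3 with the brainstem covariate, and 39 to 858 with single libraries left out. The other lists together had 21 calls of 209 tested genes. This was 32, 66, 51, 34, 80, 71 and 0 under those 7 settings in the same order, and 4 to 44 with single libraries left out. Deviations from the group mean correlated at 0.03, 0.23 and 0.44 for same-numbered samples, and at -0.37 to 0.10 for samples of unlike number. Whether the replicate number marks a shared batch was not tested, and the sample labels state no pairing. The block counts are therefore given as an alternative and not as stronger evidence. Runs for the other lists were chosen after the data were seen. Lcn2, Steap4 and Aspg, with 4 to 74 counts per library, are the values most limited by depth.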
